A study of Mus musculus with 8 samples.

Results

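Amino acid transporters of the SLC7 group and their close functional partners were examined in mouse heart cells labelled as having or not having performed the cell cycle after delivery of cell cycle genes. The 10 genes were found by symbol among the 37991 genes of the count table, and comprised 7 SLC7 genes (Slc7a1, Slc7a2, Slc7a5, Slc7a6, Slc7a7, Slc7a8 and Slc7a11) and 3 genes outside that family (Slc3a2, Slc1a5 and Slc38a2). The set was picked around Slc7a2 and Slc7a11 because their read counts were higher in single than in double colored cells. That same contrast is therefore given for all 10 genes as a description, without p-values as support.

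Hearts had been injected with adenoviruses carrying 4 cell cycle genes, and cardiomyocytes were collected 2 weeks later. Single colored cells (4 libraries) are labelled as having performed the cell cycle, and double colored cells (4 libraries) as having received the same genes without performing it. Both groups came from mice with the alpha-MHC MERCREMER and MADM alleles, and both received the viruses, so neither group is an uninjected heart. In MADM (mosaic analysis with double markers), Cre recombines homologous chromosomes, and a cell that then divides can give daughters of a single color. MerCreMer is a tamoxifen-dependent Cre, and here the alpha myosin heavy chain promoter, active in cardiomyocytes, drives it. The cells are labelled adult, with no exact age, and nothing says whether replicates were separate animals, so each p-value measures a spread between libraries that can be technical.

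Amino acids cross the plasma membrane through carriers that differ in substrate and in driving force. The cationic amino acid transporters encoded by Slc7a1 and Slc7a2 work alone and carry arginine, lysine and ornithine. The other SLC7 genes described here encode light chains that reach the cell surface bound to the heavy chain CD98, the product of Slc3a2, and that work as exchangers. Exchangers for large neutral amino acids depend on substrates loaded by sodium-coupled carriers such as the products of Slc1a5 and Slc38a2. The leucine taken up feeds the mTORC1 growth pathway, arginine feeds nitric oxide and polyamine synthesis, and cystine taken up by the Slc7a11 product feeds glutathione synthesis.

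The libraries held between 23820700 and 30082278 counted reads. Mitochondrially encoded genes took 77.5% to 85.9% of them in single and 84.2% to 88.3% in double colored libraries. That left 3503353 to 6112595 reads per library for nuclear genes. The 10 tested cardiomyocyte markers were all present, with summed levels of 6389 to 11800 CPM (the usual depth-scaled count, here with TMM factors) in single colored libraries and 12433 to 14303 CPM in double colored libraries. None passed the threshold (edgeR adjusted p under 0.05), and with the replicate number as a block 2 were lower (Tnni3 and Pln), against 2.57% of all tested genes. Macrophage markers (16 genes) summed to 268 to 465 CPM in single colored libraries, against 143 to 201 CPM in double colored ones, with 6 of 16 higher (10 with the block) and none at 0 in any library. Mrc1 and Cx3cr1 of that list went the other way, with log2 fold changes (single over double) of -0.40 and -0.16 that passed in neither fit. Lymphocyte markers (11 genes) summed to 16.6 to 33.0 CPM in single colored libraries, against 1.67 to 4.65 CPM in double colored ones, and 7 of the 8 that could be tested were higher. Among them Cd3d, Cd3g and the B cell genes Cd79a and Ms4a1 had no read in at least 1 library. Cd3d, Cd3g and Nkg7 averaged 0.0667, 0.0872 and 0.225 CPM in double colored libraries. These genes were tested because of their level in single colored cells, which favored a higher call, so the count of 7 is a description. These summed levels did not overlap between the groups for any of the 3 cell types. Of all tested genes, 2.32% were higher by the threshold and 4.97% with the block. Fibroblast markers ran from 623 to 1848 CPM in single colored libraries, against 300.2 to 738 CPM in double colored ones, with overlap, although the single colored library was the higher one in all 4 numbered pairs. Of 8 fibroblast markers 1 was higher (Col1a1), and 4 with the block (Col1a1, Col1a2, Col3a1 and Postn). Pdgfra, Lum, Dcn and Tcf21 were called in neither fit, with log2 fold changes (single over double) of 0.086, 0.29, -0.10 and -0.79. In such bulk samples a change in the number of cells of a type and a change in RNA per cell cannot be told apart. The part of other cell types in the transporter values below was not tested.

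Among the cationic amino acid transporters, Slc7a2 and Slc7a1 did not move together. Slc7a2 (ENSMUSG00000031596, mm9 chromosome 8, 41947750 to 42007662), which encodes CAT2, a carrier known in mice for supplying arginine to activated macrophages, was measured at 14.1, 9.98, 12.0 and 15.7 CPM in single colored replicates 1 to 4, against 3.60, 3.36, 3.63 and 1.21 CPM in double colored replicates 1 to 4. The lowest single colored library lay well above the highest double colored one, and double colored replicate 4 stood below the other 3. The mean was 12.9 ± 2.49 CPM in single colored libraries, against 2.95 ± 1.17 CPM in double colored ones (SD, n = 4 each), a log2 fold change of 2.13 ± 0.28 (SE) for single over double. Slc7a1 (ENSMUSG00000041313, mm9 chromosome 5, 149138986 to 149211480), which encodes CAT1, the carrier of arginine and lysine found in most cell types, had 10.04, 11.7, 9.89 and 10.4 CPM in single colored replicates 1 to 4, against 8.12, 13.6, 15.7 and 19.1 CPM in double colored replicates 1 to 4. Double colored libraries lay on both sides of the single colored ones, and the coefficient of variation was 7.66% in single and 32.5% in double colored libraries. The log2 fold change was -0.43 ± 0.21 (SE), and 0.029 when libraries were scaled by their totals only, a setting that shifts the median over all genes to 0.48. Of the exon bases of Slc7a2, 6.95% also lie in an unnamed gene that runs the other way, and whether reads were counted by strand is not stated in the sources used here.

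Set per kilobase of exon, the 2 cationic transporters had like levels in single colored cells and unlike levels in double colored cells. Slc7a2 averaged 1.42 ± 0.272 RPKM (CPM per kilobase of exon) in single and 0.323 ± 0.128 RPKM in double colored cells, and Slc7a1 averaged 1.39 ± 0.107 RPKM in single and 1.88 ± 0.612 RPKM in double colored cells (SD, n = 4 each). Slc7a2 thus made up 53.7%, 41.4%, 49.9% and 55.4% of the summed level of both genes in single colored replicates 1 to 4, against 26.8%, 16.9%, 16.0% and 4.97% in double colored replicates 1 to 4. The 2 ranges did not overlap. The share rests on the same contrast that chose Slc7a2, so it is a description with no test.

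**Figure D1:**
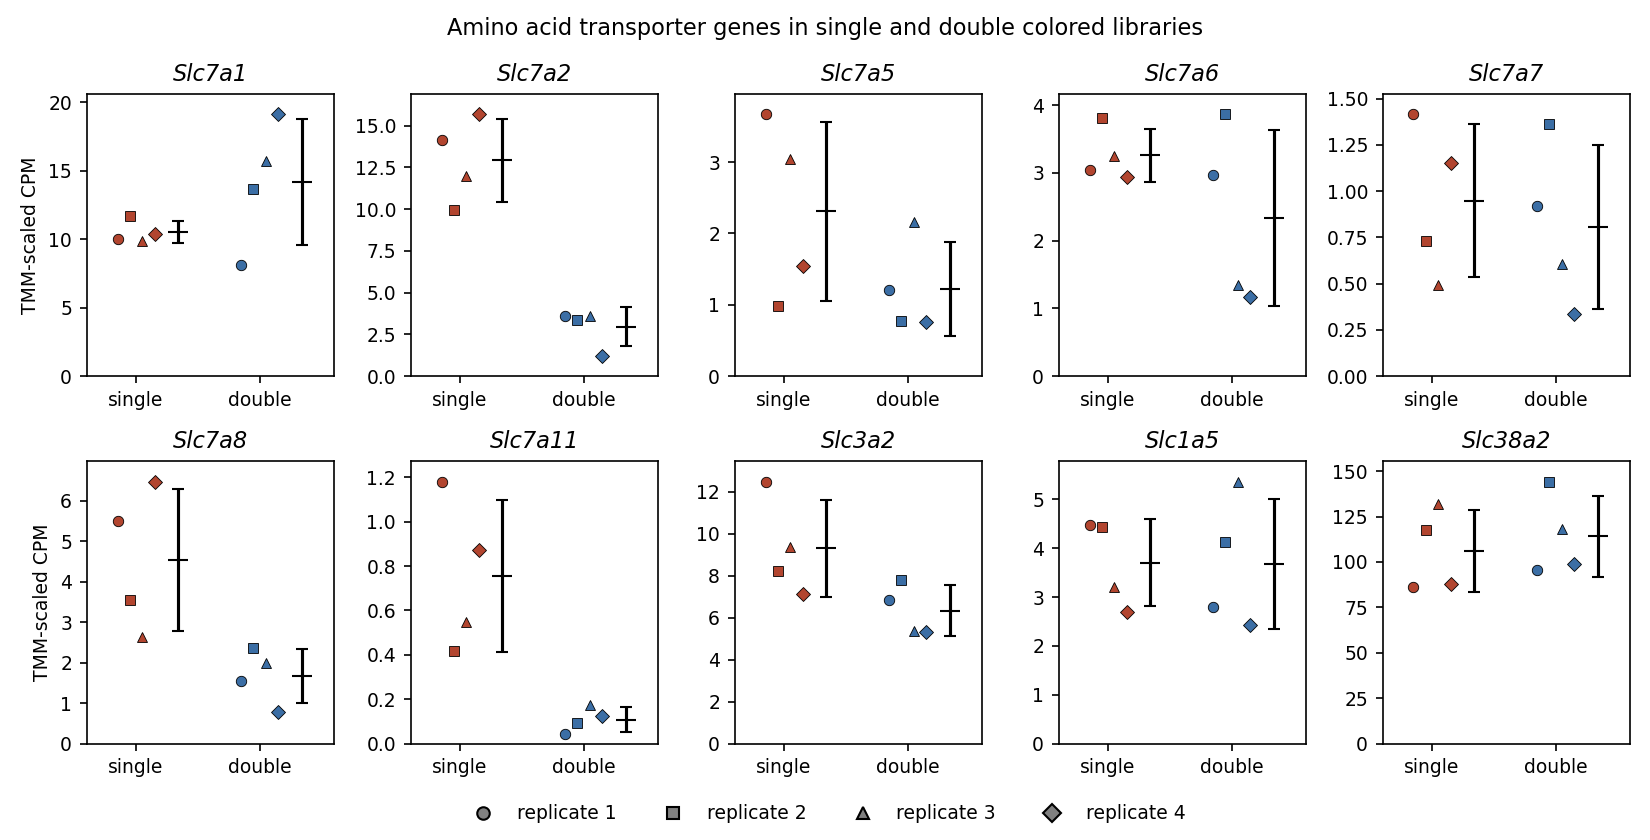
Scaled read counts (CPM, linear axes from 0) of the 10 transporter genes in each of the 4 single and 4 double colored libraries, with marker shapes for replicate numbers and bars for mean ± SD. For Slc7a2, Slc7a8 and Slc7a11 all 4 single colored libraries lie above all 4 double colored ones, and for the other 7 genes the groups overlap.

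The light chain genes that pair with CD98 differed among themselves, with Slc7a11 and Slc7a8 higher in every single colored library. Slc7a11 (ENSMUSG00000027737, mm9 chromosome 3, 50168858 to 50247535) encodes xCT, which exchanges extracellular cystine for glutamate. It had 45, 12, 21 and 22 reads in single colored replicates 1 to 4, against 1, 2, 4 and 3 reads in double colored replicates 1 to 4. On the scaled count this was 1.18, 0.419, 0.546 and 0.873 CPM in single colored replicates 1 to 4, against 0.0419, 0.0909, 0.173 and 0.125 CPM in double colored replicates 1 to 4. The groups did not overlap, and both were low. Over the 100 reads of all single and 10 reads of all double colored libraries the rate ratio was 7.13. Its 95% exact conditional binomial interval of 3.72 to 15.3 covers counting error only, not the spread between libraries. Slc7a11 was picked for being higher in this contrast, so the interval is a description and no support for a difference. The fitted log2 fold change was 2.76 ± 0.62 (SE). No double colored library reached 10 reads, so the gene was tested only because of its level in single colored cells.

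Slc7a8 (ENSMUSG00000022180, mm9 chromosome 14, 55341053 to 55400723) encodes LAT2, an exchanger of neutral amino acids. It was measured at 5.50, 3.56, 2.63 and 6.47 CPM in single colored replicates 1 to 4, against 1.55, 2.36, 1.99 and 0.794 CPM in double colored replicates 1 to 4. The groups did not overlap, but single colored replicate 3 and double colored replicate 2 lay close together. The log2 fold change was 1.44 ± 0.34 (SE). Slc7a5 (ENSMUSG00000040010, mm9 chromosome 8, 124405052 to 124431594) encodes LAT1, the leucine exchanger often raised in growing cells. It had 3.67, 0.977, 3.04 and 1.55 CPM in single colored replicates 1 to 4, against 1.21, 0.773, 2.16 and 0.752 CPM in double colored replicates 1 to 4. Replicates 1 and 3 were the high libraries in each group, and the groups overlapped. Its log2 fold change of 0.92 ± 0.43 (SE) did not pass the threshold, although the single colored library was the higher one in all 4 numbered pairs.

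Slc7a6 (ENSMUSG00000031904, mm9 chromosome 8, 108692775 to 108722604) and Slc7a7 (ENSMUSG00000000958, mm9 chromosome 14, 54989128 to 55032856) encode y+LAT2 and y+LAT1, which export cationic in exchange for neutral amino acids. Slc7a6 had 3.04, 3.80, 3.25 and 2.94 CPM in single colored replicates 1 to 4, against 2.97, 3.86, 1.34 and 1.17 CPM in double colored replicates 1 to 4. Double colored replicates 1 and 2 lay within or beside the single colored range and replicates 3 and 4 below it, for a log2 fold change of 0.48 ± 0.33 (SE). Slc7a7 had 1.41, 0.733, 0.494 and 1.15 CPM in single colored replicates 1 to 4, against 0.921, 1.36, 0.605 and 0.334 CPM in double colored replicates 1 to 4. The groups overlapped over most of their range, with a log2 fold change of 0.24 ± 0.49 (SE). Of the exon bases of Slc7a7, 9.96% also lie in Oxa1l, which runs the other way.

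The heavy chain gene Slc3a2 (ENSMUSG00000010095, mm9 chromosome 19, 8781372 to 8797859) had 12.5, 8.24, 9.37 and 7.14 CPM in single colored replicates 1 to 4, against 6.87, 7.82, 5.36 and 5.31 CPM in double colored replicates 1 to 4. The single colored library was higher in all 4 numbered pairs, while double colored replicate 2 lay above single colored replicate 4, so the groups overlapped. The log2 fold change was 0.56 ± 0.21 (SE), and 1.11 with scaling by library totals alone, the only setting tried in which Slc3a2 passed the threshold. Per kilobase, the 5 light chain genes summed to 3.14 ± 0.665 RPKM in single and 1.75 ± 0.652 RPKM in double colored cells, and Slc3a2 averaged 3.15 ± 0.777 RPKM in single and 2.14 ± 0.414 RPKM in double colored cells (SD, n = 4 each). The light chain sum relative to Slc3a2 was 0.937, 0.912, 0.839 and 1.41 in single colored replicates 1 to 4, against 0.834, 0.927, 0.965 and 0.492 in double colored replicates 1 to 4. These ratios overlapped between the groups, with single colored replicate 4 highest and double colored replicate 4 lowest. Slc7a8 made up 24.5% to 47.0% of the light chain sum in single and 19.8% to 28.2% in double colored libraries, and Slc7a6 20.6% to 40.1% in single and 20.5% to 42.3% in double colored libraries.

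**Figure D2:**
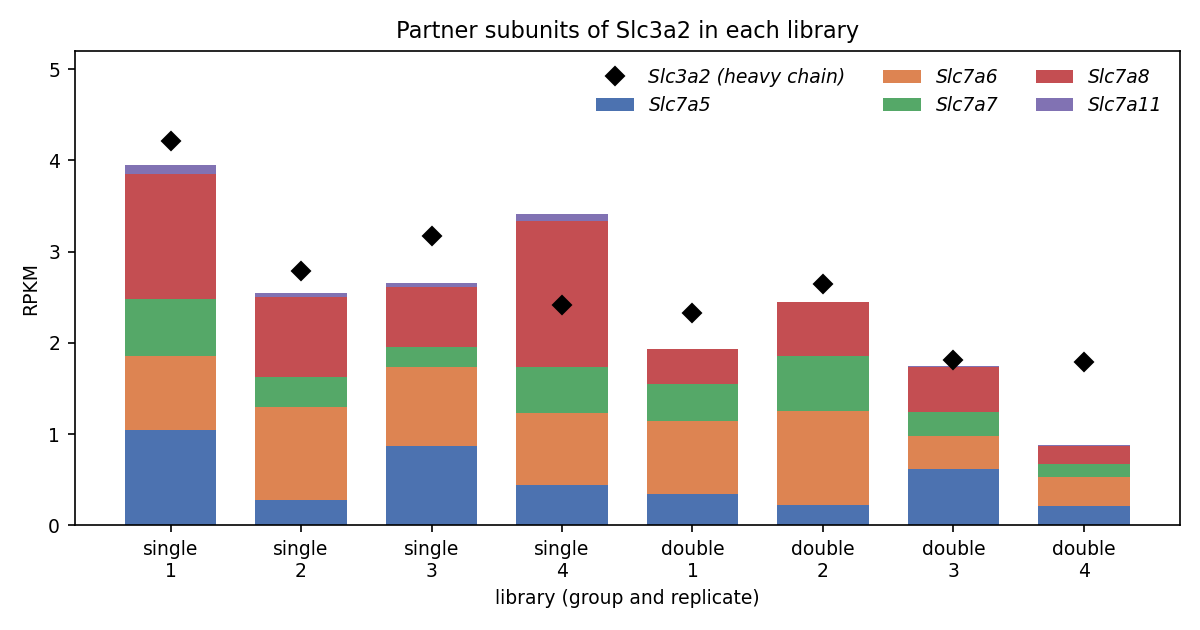
Stacked levels per kilobase of exon (RPKM) of the 5 light chain genes in each library, with the heavy chain gene Slc3a2 as diamonds. The stacks of single colored replicates 1 and 4 are tallest at 3.95 and 3.42 RPKM, that of double colored replicate 4 is shortest at 0.883 RPKM, and Slc7a11 is a thin band throughout.

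The sodium-coupled carriers had log2 fold changes near 0. Slc38a2 (ENSMUSG00000022462, mm9 chromosome 15, 96517825 to 96530129) encodes SNAT2, which imports small neutral amino acids such as glutamine and alanine. It had 86.2, 118, 132 and 88.1 CPM in single colored replicates 1 to 4, against 95.5, 144, 118 and 98.9 CPM in double colored replicates 1 to 4. The groups overlapped almost fully, with a log2 fold change of -0.11 ± 0.19 (SE), and 0.40 with scaling by library totals alone. Slc1a5 (ENSMUSG00000001918, mm9 chromosome 7, 17366695 to 17383623) encodes ASCT2, an exchanger of glutamine and other neutral amino acids. It had 4.48, 4.43, 3.20 and 2.70 CPM in single colored replicates 1 to 4, against 2.81, 4.14, 5.36 and 2.42 CPM in double colored replicates 1 to 4. Both the lowest and the highest of the 8 libraries were double colored, and the log2 fold change was 0.013 ± 0.27 (SE).

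Across the whole table, 309 of 12466 tested genes, or 2.48%, passed the threshold for single over double colored cells (edgeR's quasi-likelihood test, adjusted p under 0.05), with 2.32% higher and 0.16% lower. Of the 10 transporters, 3 were among the higher genes (Slc7a2, Slc7a8 and Slc7a11) and none among the lower. Since the genes were picked on this contrast, nothing is read from that count. The same 3 genes, again of 10, had groups that did not overlap with single colored libraries above, which held for 5.37% of all tested genes, while none of the 10 had single colored libraries below, against 3.76% of tested genes (9.14% in either direction). The median log2 fold change of the 10 was 0.52, against -0.0053 over all tested genes, with 8 positive and 2 negative. The median and the signs include Slc7a2 and Slc7a11, picked on this contrast, so nothing is read from them either. With the replicate number as a block, 7.53% of tested genes differed, 4.97% higher and 2.57% lower, and 3 transporters were among the higher and none among the lower. On leaving out 1 library at a time, a further description of the same contrast, Slc7a2 stayed past the threshold in 8 of 8 fits. Slc7a8 did in 3 of 8, and missed it without single colored replicate 1 or 4 and without double colored replicate 1, 3 or 4. Slc7a11 did in 3 of 8, and missed it without single colored replicate 1 or 4 and without double colored replicate 1, 2 or 4.

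**Figure D3:**
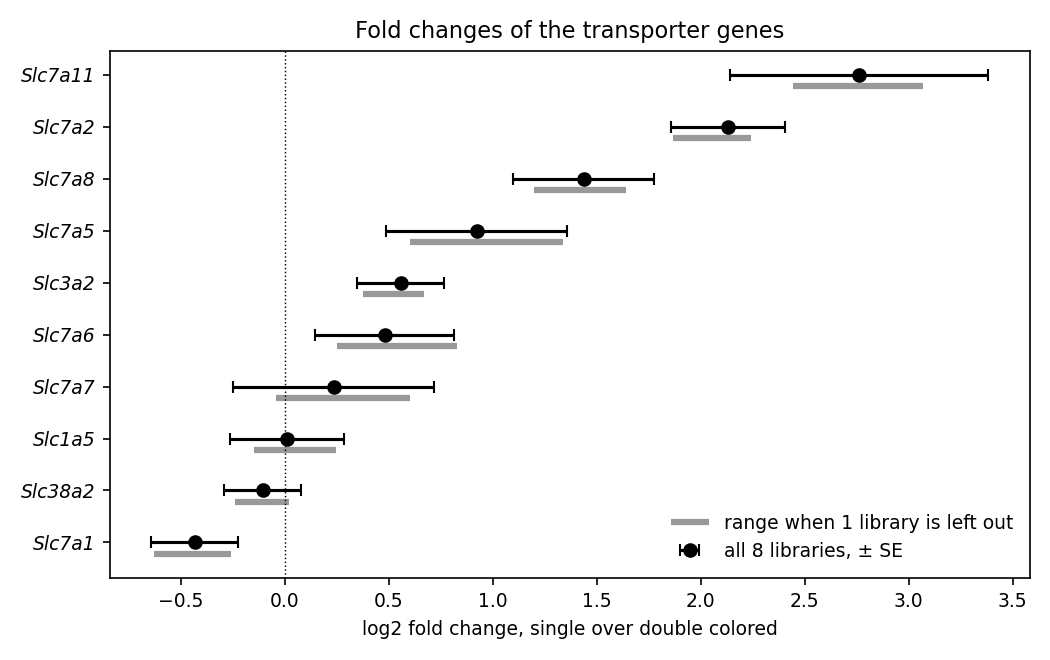
Log2 fold changes (single over double colored) of the 10 transporter genes, as points with SE from all 8 libraries and as grey bars for the range over fits that each omit 1 library. Slc7a11 at 2.76, Slc7a2 at 2.13 and Slc7a8 at 1.44 stand highest, and the grey bars of Slc7a7, Slc1a5 and Slc38a2 cross 0.

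Promoter sequences were set beside these values because 3 transporters were higher in the same libraries and Slc7a11 is known for control by amino acid supply. Among RefSeq promoter sequences of mouse build GRCm38.p6, 7 of the 10 genes had an entry, with 13 start sites in all, and Slc7a2, Slc7a5 and Slc1a5 were the 3 with none. The 250 bases before each start site were searched on both strands for the amino acid response motif bound by ATF4 (TGATGNAA, or TTNCATCA on the other strand), the antioxidant response motif bound by NRF2 (TGACNNNGC, or GCNNNGTCA) and the GC box bound by SP1 (GGGCGG, or CCGCCC). Start sites of one gene can lie close together, so that windows of Slc7a6 and of Slc7a7 share bases. The windows of Slc7a11 (chr3:50443614-50443863, minus strand), Slc7a8 (chr14:54781887-54782136, minus strand) and the farthest upstream start site of Slc7a7 (chr14:54417945-54418194, minus strand) are printed 5′ to 3′, as the higher genes with an entry and the other gene with an amino acid response motif. Capitals mark matches to that motif.
Slc7a11: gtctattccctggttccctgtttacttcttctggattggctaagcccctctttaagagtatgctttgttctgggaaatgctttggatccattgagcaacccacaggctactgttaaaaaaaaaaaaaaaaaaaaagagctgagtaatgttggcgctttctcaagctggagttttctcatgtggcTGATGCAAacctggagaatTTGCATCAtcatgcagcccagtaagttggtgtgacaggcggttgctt
Slc7a8: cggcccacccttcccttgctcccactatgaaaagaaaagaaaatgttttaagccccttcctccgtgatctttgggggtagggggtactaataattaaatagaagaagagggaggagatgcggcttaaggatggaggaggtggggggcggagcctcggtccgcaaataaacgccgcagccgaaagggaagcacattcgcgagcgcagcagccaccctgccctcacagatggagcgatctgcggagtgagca
Slc7a7: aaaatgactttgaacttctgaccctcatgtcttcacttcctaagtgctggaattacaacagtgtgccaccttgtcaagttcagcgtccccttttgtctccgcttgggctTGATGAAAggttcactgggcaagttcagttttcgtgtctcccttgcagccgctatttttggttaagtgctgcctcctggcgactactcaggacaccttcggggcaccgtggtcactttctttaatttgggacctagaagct

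The Slc7a11 window held 2 amino acid response motifs, from -66 to -59 on the gene strand and from -47 to -40 on the other strand, counted from the start site. Slc7a7 held 1 match before each of 2 of its start sites, from -141 to -134 and from -243 to -236, and no other transporter with an entry held one. Of 27025 genes with a RefSeq promoter 3.91% had at least 1 such match before a start site. The antioxidant motif lay before start sites of Slc7a1, Slc7a6 and Slc38a2, against 11.5% of all genes, and a GC box before those of 6 transporters, Slc7a8 and Slc3a2 among them, against 35.4% of all genes. Apart from 1 GC box of Slc7a7 that 2 overlapping windows share, no match lay on another. Slc7a11 and Slc7a7, the 2 with an amino acid response motif, had log2 fold changes of 2.76 and 0.24. A match here is a string of letters in the reference and says nothing about binding in these cells.

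Levels per kilobase, pooled over both groups, separated the transporters over a wide range. By mean log2 RPKM over all 8 libraries the order from high to low was Slc38a2, Slc3a2, Slc7a1, Slc1a5, Slc7a6, Slc7a8, Slc7a2, Slc7a5, Slc7a7 and Slc7a11. Slc38a2, the glutamine and alanine importer, averaged 22.9 ± 4.90 RPKM in single and 24.7 ± 4.82 RPKM in double colored libraries (SD, n = 4 each) and exceeded 98.3% of tested genes, and Slc3a2 averaged 2.64 RPKM and exceeded 80.2%. Slc7a1, at 1.64 RPKM, exceeded 68.2% of tested genes. Slc7a11, at 0.0383 RPKM, exceeded 0.120%. The remaining 6 genes averaged between 0.386 and 0.888 RPKM, and exceeded 24.5% to 49.3% of tested genes. The place of Slc7a2 differed between the groups: its mean of 1.42 RPKM in single colored libraries lay above the 1.39 RPKM of Slc7a1, while its mean of 0.323 RPKM in double colored libraries lay below the 0.348 RPKM of Slc7a5 and the 0.355 RPKM of Slc7a7. Its place in the pooled order thus depends on the contrast that chose it. Other SLC7 genes in the table (Slc7a3, Slc7a4, Slc7a9, Slc7a10, Slc7a12, Slc7a13, Slc7a14 and Slc7a15) had 0 to 23 reads over all single and 0 to 24 reads over all double colored libraries, too few to test.

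Neighbours in this order were compared within libraries by an exact sign-flip permutation test, two-sided, over all sign patterns, with p-values adjusted over the 9 pairs. Slc38a2 was higher than Slc3a2 in 8 of 8 libraries by 3.19 ± 0.506 on the log2 scale (SD; exact adjusted p = 0.0234). Slc7a1 was higher than Slc1a5 in 8 of 8 by 0.86 ± 0.54 (exact adjusted p = 0.0234). Both steps reached the smallest raw p this test allows, 0.00781. The test treats the 8 libraries as independent, although same-numbered libraries were taken as pairs, so these p-values can be too small. The step down to Slc7a11, 3.56 ± 1.26 and in the same direction in 8 of 8 libraries, is given without a p because Slc7a11 was picked and entered the fit only through single colored libraries. That step still counts among the 9 pairs of the adjustment, and its tie at the smallest raw p lowered both adjusted p-values above. Slc3a2 was higher than Slc7a1 in 6 of 8 libraries by 0.70 ± 0.72 (exact adjusted p = 0.0879). The 5 steps from Slc1a5 down to Slc7a7 were between 0.013 and 0.54, each smaller than its SD between libraries of 0.54 to 0.99, and none passed. With coding length in place of exon length 0 of 9 steps passed, Slc38a2 stayed first and Slc7a2 moved to the fourth place. A single step at the smallest raw p cannot pass after adjustment over 9 pairs, so that count does not show that levels were alike. The exon length of Slc7a11 is 11245 bases against a coding length of 1506, the widest gap among the 10.

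**Figure D4:**
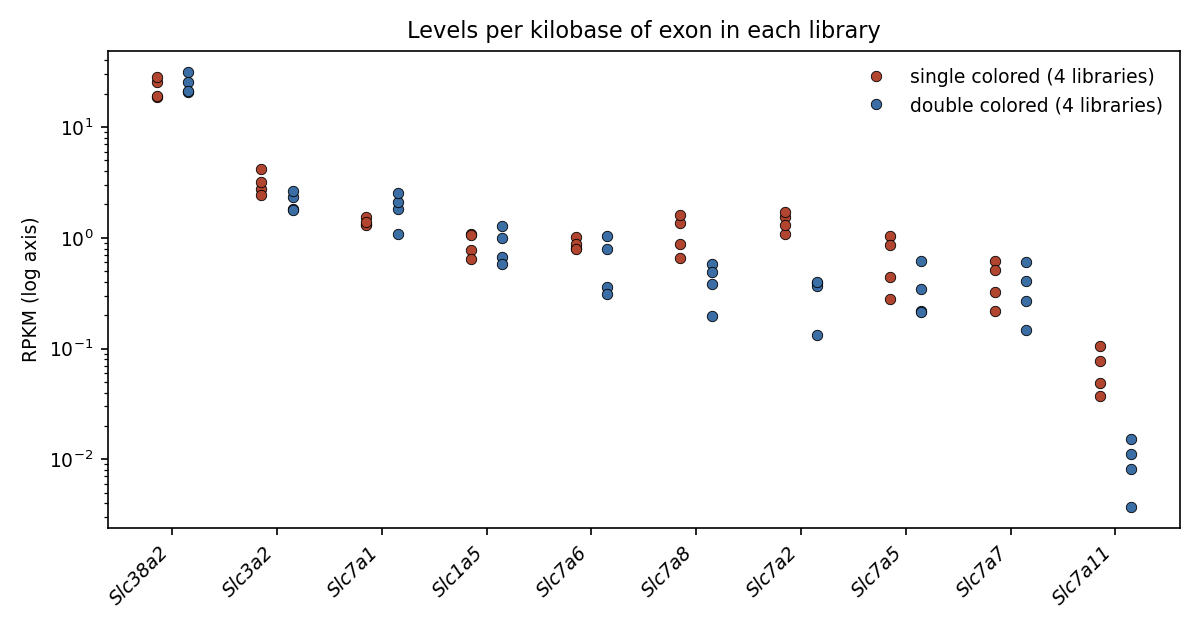
Levels per kilobase of exon (RPKM, log axis) of the 10 genes in each library, ordered by mean log2 level, with single colored libraries on the left and double colored ones on the right of each pair. Slc38a2 averages 22.9 RPKM in single and 24.7 RPKM in double colored libraries, Slc7a11 averages 0.0383 RPKM over all 8, and the genes between Slc1a5 and Slc7a7 share one band.

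The counts in the gene lists that follow stand beside these shares of all tested genes. With edgeR 2.32% were higher and 0.16% lower, without adjustment 9.02% higher and 6.1% lower had p under 0.05, and with the block 4.97% were higher and 2.57% lower. With DESeq2, which gave an adjusted p for 13892 genes, 3.34% were higher and 0.684% lower.

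Among 36 other plasma membrane amino acid transporter genes, 18 had too few reads to test, and none of the 18 tested passed the threshold with edgeR. Without adjustment, p was under 0.05 for 3 higher genes and 1 lower gene, DESeq2 placed 1 higher (Slc43a2), and the replicate block 2 (Slc43a2 and Slc1a2). The list had a median log2 fold change of 0.25, with 12 positive and 6 negative. Slc43a2, a uniporter of large neutral amino acids, had 10.04, 11.1, 10.02 and 12.8 CPM in single colored replicates 1 to 4, against 6.91, 7.91, 5.14 and 8.40 CPM in double colored replicates 1 to 4 (edgeR adjusted p = 0.0890, and 0.0167 with the block). Slc1a2, a glutamate transporter, was low at 0.734 ± 0.337 CPM in single colored libraries, against 0.172 ± 0.103 CPM in double colored ones (SD, n = 4 each). It had 6, 3, 6 and 1 reads in double colored replicates 1 to 4. Slc1a2 was thus tested only because of its level in single colored cells, and its call with the block is a description, given without a p. The glutamine transporter gene Slc38a3 had -0.59 ± 0.25 on that scale (log2 fold change; edgeR adjusted p = 0.268).

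The gene lists around arginine, carried by the Slc7a2 product, and cystine, carried by the Slc7a11 product, each held 1 gene past the edgeR threshold. Of 14 tested genes of arginine, nitric oxide and polyamine metabolism, 1 rose and none fell, against 4 higher at an unadjusted p under 0.05 and 2 higher with DESeq2 (Gatm and Arg1), with a list median of 0.43. Of all tested genes 2.32% were higher by the first count, 9.02% by the second and 3.34% by the third. Gatm, the first enzyme of creatine synthesis from arginine, had 9.43, 5.76, 3.98 and 6.19 CPM in single colored replicates 1 to 4, against 2.55, 3.27, 1.21 and 1.30 CPM in double colored replicates 1 to 4 (log2 fold change 1.61 ± 0.33, edgeR adjusted p = 0.0150). It missed the threshold without single colored replicate 1 (edgeR adjusted p = 0.0576) or double colored replicate 4 (0.0687). Arg1, which encodes the arginase of liver and of alternatively activated macrophages and was chosen after its values were seen, had 5.19, 9.28, 5.52 and 25.8 CPM in single colored replicates 1 to 4, against 2.47, 0.818, 1.599 and 0.585 CPM in double colored replicates 1 to 4. Its groups did not overlap, and single colored replicate 4 was highest, as it was for Slc7a2 and Slc7a8. The log2 fold change of Arg1 was 3.05 ± 0.68 (edgeR adjusted p = 0.0648, and 0.144 with the block).

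Of 15 tested cystine and glutathione genes, 1 rose and none fell, 2 were higher at an unadjusted p under 0.05, DESeq2 placed 1 higher, and the list median was 0.11. The riser was Hmox1, which encodes heme oxygenase, a stress-induced enzyme that degrades haem rather than cystine or glutathione. Hmox1 is also abundant in macrophages. It averaged 7.93 ± 1.05 CPM in single colored libraries, against 3.24 ± 2.06 CPM in double colored ones (SD, n = 4 each; log2 fold change 1.29 ± 0.32, edgeR adjusted p = 0.0448). Hmox1 kept an edgeR adjusted p under 0.05 only without double colored replicate 3, and leaving out any other library gave 0.0622 to 0.138. The glutathione synthesis genes Gclc, Gclm and Gss had log2 fold changes of -0.40 ± 0.25, 0.20 ± 0.22 and -0.13 ± 0.31.

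Of 17 tested amino acid response genes none passed with edgeR, while an unadjusted p under 0.05 was found for 3 higher genes and 1 lower gene, DESeq2 placed 2 higher, and the block 2 higher and 1 lower. Over all tested genes those shares were 9.02% higher and 6.1% lower without adjustment, 3.34% higher with DESeq2, and 4.97% higher and 2.57% lower with the block. The list median was 0.21. Psat1, of serine synthesis, averaged 3.68 ± 0.940 CPM in single colored libraries, against 1.83 ± 0.217 CPM in double colored ones (SD, n = 4 each; edgeR adjusted p = 0.0503, and 0.0224 with the block). The stress-induced Nupr1 had a value of 1.79 ± 0.56 on the log2 fold scale (edgeR adjusted p = 0.119, and 0.00724 with the block), and the transcription factor gene Atf3 one of -0.68 ± 0.21 (0.122, and 0.0142 with the block). Atf4 mRNA, which encodes the factor of the amino acid response motif but is controlled largely at translation, was at -0.23 ± 0.14 on that scale (edgeR adjusted p = 0.453).

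Of 24 tested genes of amino acid sensing by mTORC1, 0 passed with edgeR, 0 with DESeq2 and 0 at an unadjusted p under 0.05, and the list median was -0.082. The smallest p values belonged to Lamtor1 and Sesn1, with log2 fold changes of -0.35 ± 0.18 and -0.27 ± 0.17, and Castor1, at -0.79 ± 0.56. Branched-chain amino acid breakdown genes take part in the disposal of leucine, isoleucine and valine or in its control. They had negative log2 fold changes in 8 of 9 cases with a median of -0.43. The exception was the transaminase gene Bcat1, at 1.43 ± 0.73 (edgeR adjusted p = 0.380), the largest change of the list. None of the 9 passed with edgeR or DESeq2, 2 were lower at an unadjusted p under 0.05, and the block placed 2 lower, Ppm1k and Dbt. Bckdk, the kinase that restrains the pathway, had a log2 fold change of -0.54 ± 0.21, the phosphatase gene Ppm1k -0.46 ± 0.20 and the transaminase gene Bcat2 -0.53 ± 0.26 (edgeR adjusted p = 0.216, 0.297 and 0.359). In the same libraries the 10 cardiomyocyte markers had a median of -0.45, and all 10 were negative.

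**Figure D5:**
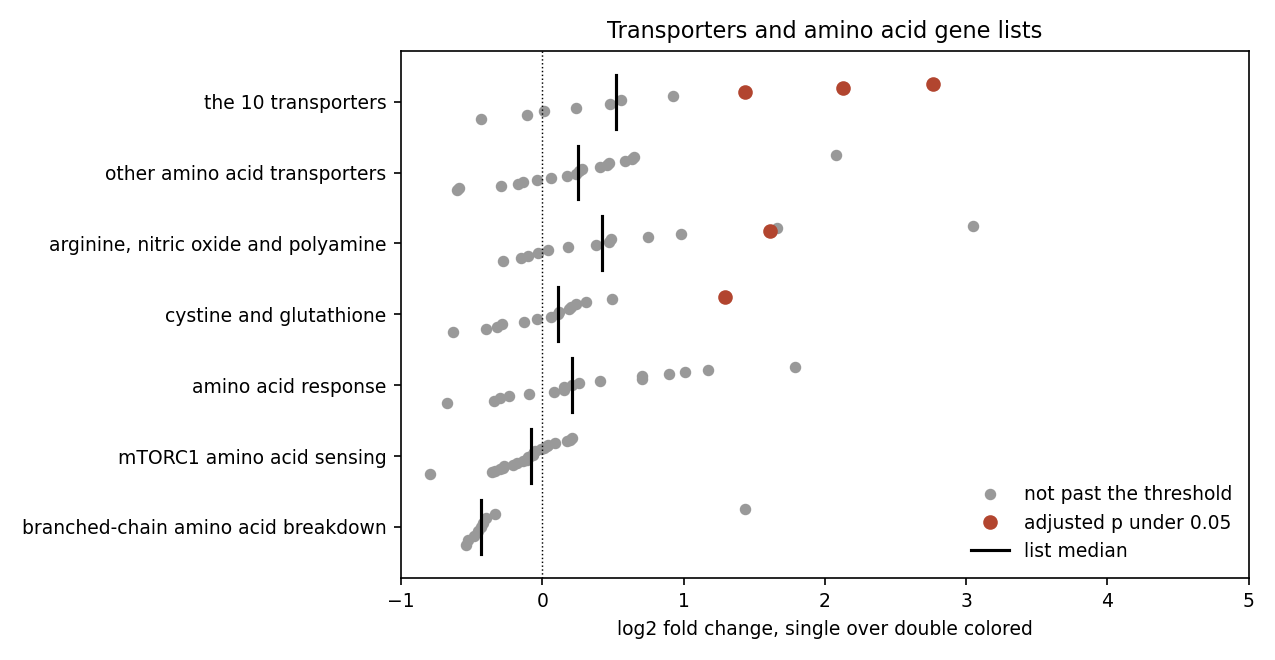
Log2 fold changes (single over double colored) of the 10 transporters and of 6 amino acid gene lists, with 1 point for each tested gene, red where the edgeR adjusted p was under 0.05, and a bar for each median. The medians run from 0.52 for the transporters, a set picked on this contrast, to -0.43 for branched-chain amino acid breakdown. Outside the transporters the red points are Gatm and Hmox1.

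Genes most like Slc7a2 and Slc7a11 in their pattern over the 8 libraries were sought among 11536 named protein-coding genes by Pearson correlation of log2 CPM. These libraries share the group difference and their depth, so the correlations are given as a description. The named genes were the highest of 11536, a choice that raises their correlations, also those with group means taken out. For Slc7a2 they were Cd180, a receptor-like protein gene of B cells and myeloid cells (r = 0.982), the interferon-induced Ifi209 (0.979) and the leukocyte integrin gene Itgb2 (0.978). With group means taken out the same 3 correlations were 0.893, 0.865 and 0.861. Cd180 averaged 19.2 ± 6.74 CPM in single colored libraries, against 4.64 ± 1.53 CPM in double colored ones, and Itgb2 15.03 ± 3.75 CPM in single colored libraries, against 4.09 ± 1.37 CPM in double colored ones (SD, n = 4 each). For Slc7a11 they were Tbxas1, which encodes thromboxane synthase (r = 0.983), the transcription factor gene Runx3 (0.982) and Ccdc88b (0.974), and 0.923, 0.898 and 0.853 with group means taken out. Runx3 averaged 1.87 ± 0.380 CPM in single colored libraries, against 0.518 ± 0.124 CPM in double colored ones.

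Within the single colored group the highest library was not the same for each transporter, and summed marker levels are given beside them as a description. Replicate 1 was highest for Slc7a11 (1.18 CPM), Slc7a5 (3.67 CPM) and Slc3a2 (12.5 CPM) and had the highest macrophage sum, at 465 CPM, and the lowest cardiomyocyte sum, at 6389 CPM. Replicate 4 was highest for Slc7a2 (15.7 CPM) and Slc7a8 (6.47 CPM), with a macrophage sum of 291 CPM, below 2 of the other 3, and the lowest lymphocyte sum, at 16.6 CPM. In the double colored group replicate 4 was lowest for Slc7a2 (1.21 CPM), Slc7a8 (0.794 CPM), Slc7a5 (0.752 CPM) and Slc3a2 (5.31 CPM). It also had the lowest macrophage sum, at 143 CPM. Slc7a11 was lowest in double colored replicate 1 (0.0419 CPM), which had a macrophage sum of 195 CPM. The part of other cell types in these values was not tested.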

How the data were processed

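RNA of 4 single and 4 double colored cardiomyocyte libraries was extracted with the miRNeasy Micro Kit and amplified with the Ovation RNA-seq System v2, per the labels. Per the submitters' processing notes, STAR 2.5.2b, featureCounts of Subread and build mm9 were used. The deposited columns used hold whole numbers of reads for 37991 Ensembl genes, which the headers call raw, rather than estimated counts. The other 24 per-sample columns (CPM and FPKM) were not used. Symbols were matched by identifier for 32919 genes. Depth ran from 23820700 to 30082278 reads.

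Counts were fitted with edgeR 4.0.16 in R 4.3.3 (filterByExpr with a minimum count of 10, TMM, robust quasi-likelihood F-test, Benjamini-Hochberg at 0.05). Fold changes are single over double. RPKM divides TMM-scaled CPM by the deposited exon length, and log2 values used a prior count of 2. Both tests were tried on simulated data. Alternatives were DESeq2 1.42.0, RLE factors, library totals alone, no mitochondrially encoded genes, no filter, the replicate block and left-out libraries.

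The members, gene lists and tests were chosen with earlier results of these data known. In each amino acid list every gene past the threshold is named, otherwise up to 3 with the smallest p, and for Slc7a2 and Slc7a11 the 3 most alike genes. Deviations of same-numbered libraries correlated by 0.257, 0.126, 0.136 and 0.139, against at most 0.108 for other numbers, and their descriptions share an id, so the numbers were taken as pairs. Values of 1 lymphocyte marker are not reported here.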

Additional observations from a re-analysis of the deposited data

Results flagged for a closer look

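Slc7a2 in double colored replicate 4, at 1.21 CPM, lay apart from the other double colored libraries, which held 3.36 to 3.63 CPM, by 0.890 of the group's range. The level of the 5 light chain genes relative to Slc3a2 in single colored replicate 4, at 1.41, lay above the other single colored libraries, at 0.839 to 0.937, by 0.8293 of the range, marginally past Dixon's critical value for 4 samples. Chance flags about 1 in 20 groups, and 22 groups were examined. The causes were not tested.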

How the results depend on the processing

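Against 309 genes that differed, 559 did with DESeq2, 1390 with library totals alone (1389 higher and 1 lower, against 289 and 20), 805 with no filter and 939 with the replicate block (619 higher and 320 lower). With RLE factors 308 differed, and without mitochondrially encoded genes 309. Leaving out 1 library gave 134 to 304 genes (142 without replicate 1 of the single colored group, and 191 and 134 without replicates 2 and 4 of the double colored one), and 1 to 3 transporters (1 without replicate 1 or 4 of either group). Leaving out both libraries of a number gave 94 to 200 genes (146, 138, 200 and 94 for numbers 1 to 4), with 1 transporter called without numbers 1, 2 or 4 and 3 without number 3. The transporters called numbered 3 with DESeq2, RLE factors, no filter, the replicate block and no mitochondrially encoded genes, and 4 with library totals alone, Slc3a2 being added. The block changed no call of a transporter.

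Some signs turned. With library totals alone Slc7a1 had 0.029, against -0.43, and Slc38a2 0.40, against -0.11. With 1 library left out Slc7a7 ranged from -0.040 to 0.60, Slc1a5 from -0.15 to 0.25 and Slc38a2 from -0.24 to 0.024. With numbered pairs left out Slc7a7 ranged from -0.13 to 0.71 and Slc1a5 from -0.20 to 0.32. Of 9 level steps 3 passed (the last, to Slc7a11, a description), also under each left-out library and with a prior count of 0.5. Under a left-out library they passed only because all 3 tied at the smallest raw p, the step to Slc7a11 included. With GENCODE coding length 0 passed, but a single step at the smallest raw p cannot pass after this adjustment. That alternative was added after the data were seen, as were the left-out pairs. RefSeq coding lengths were not run. Slc7a11, with 10 reads in double colored cells, is limited by depth. Other causes were not tested.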
